A study of Rattus norvegicus with 6 samples.

Results

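The collagen crosslinking and hydroxylating enzymes examined here are 10 rat genes, chosen by name from the 37203 genes of the deposited count table. They comprise 5 lysyl oxidases (Lox and Loxl1 to Loxl4), 3 lysyl hydroxylases (Plod1, Plod2 and Plod3) and 2 catalytic subunits of prolyl 4-hydroxylase (P4ha1 and P4ha2), and all 10 were in the table. RNA had been sequenced from the alveolar tissue of rats, the tooth-bearing part of the jaw, in a study of orthodontic tooth movement with and without corticision, a surgical cut into the cortical bone. By their titles the 6 libraries fell into case (libraries 5, 6 and 9) and control (libraries 5, 6 and 10). The source field gives tooth movement without corticision for the case libraries and with corticision for the control libraries, so that titles and source field point opposite ways in their usual sense. The names of the groups here follow the titles, and a positive difference means a higher level in case. Teeth were moved in both groups. Sources used here do not give the strain, age, sex, force or duration. Since nothing says that each library comes from an animal of its own, a p-value speaks only of the spread among these 6 samples, which could be technical.

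A collagen chain is modified by these enzymes before and after it leaves the cell. In the endoplasmic reticulum prolyl 4-hydroxylase converts prolines to hydroxyproline, which makes the triple helix stable, and lysyl hydroxylases convert chosen lysines to hydroxylysine; both kinds of enzyme need iron, oxoglutarate and ascorbate. Outside the cell the copper-dependent lysyl oxidases turn lysines and hydroxylysines at the chain ends into aldehydes, which then form the covalent crosslinks that give bone and periodontal ligament their tensile strength. The pattern of lysine hydroxylation sets which kind of crosslink forms, and crosslinks rich in hydroxylysine are typical of bone.

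Library totals ranged from 11745453 to 14433740 counts in case and from 10886303 to 13727508 in control. The 6 markers of osteoblasts, such as Bglap and Ibsp, summed to 8170 to 11482 CPM (counts scaled to a library of 1000000, with library sizes adjusted by the trimmed mean of M-values) in case and 9064 to 11352 CPM in control. Both libraries numbered 5 stood apart in tooth-forming cell markers, and control 5 alone in oral epithelium markers. Tooth-forming cell markers reached a sum of 459.6 CPM in case 5, against 89.8 CPM in control 5, while they summed to 2.35 to 2.93 CPM in the other case libraries and 0.640 to 7.79 CPM in the other control libraries. Oral epithelium markers summed to 40.6 to 74.1 CPM in case, and to 3403 CPM in control 5 against 30.4 and 43.6 CPM in the other control libraries. Skeletal muscle markers varied in other libraries too, with 100.3, 332.0 and 1121 CPM in case 5, 6 and 9. They had 8.84, 898 and 919 CPM in control 5, 6 and 10. In bulk tissue fewer cells of a type and less RNA per cell cannot be told apart.

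Promoter sequences in RefSeq (rat assembly GRCr8) were at hand for 8 of the 10 genes, and the 250 bases before the start site are shown for a lysyl hydroxylase and a prolyl 4-hydroxylase that hold several copies of a hypoxia response core and for a lysyl oxidase that holds none. The core was searched as ACGTG and GCGTG on both strands and is in capitals. A core on the other strand reads CACGT or CACGC, and the form CACGTG, which would hold ACGTG on both strands, is absent from the 3 sequences. Plod2 (chr8:101964068-101964317, plus strand) and P4ha2 (chr10:38743644-38743893, plus strand) are textbook targets of the hypoxia-inducible factor, and Loxl1 is at chr8:67612225-67612474, minus strand.
Plod2: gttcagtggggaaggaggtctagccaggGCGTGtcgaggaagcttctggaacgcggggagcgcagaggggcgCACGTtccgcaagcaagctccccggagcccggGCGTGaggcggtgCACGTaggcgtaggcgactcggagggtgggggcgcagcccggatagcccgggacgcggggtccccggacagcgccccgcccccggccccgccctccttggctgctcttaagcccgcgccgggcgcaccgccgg
P4ha2: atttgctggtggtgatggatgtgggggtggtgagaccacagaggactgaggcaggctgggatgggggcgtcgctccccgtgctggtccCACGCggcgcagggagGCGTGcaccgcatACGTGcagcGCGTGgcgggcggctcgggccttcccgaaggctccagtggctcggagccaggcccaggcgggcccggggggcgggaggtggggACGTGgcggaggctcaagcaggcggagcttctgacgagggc
Loxl1: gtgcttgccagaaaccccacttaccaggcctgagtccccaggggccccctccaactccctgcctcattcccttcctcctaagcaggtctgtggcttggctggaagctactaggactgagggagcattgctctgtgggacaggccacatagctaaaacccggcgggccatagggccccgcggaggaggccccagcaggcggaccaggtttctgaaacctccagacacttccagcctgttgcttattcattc

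These sequences were chosen after their motifs had been counted. Plod2 held 4 cores, starting 222, 178, 146 and 133 bases before the start site, and P4ha2 held 5, at 162, 146, 133, 124 and 41 bases. Among the other genes P4ha1 held 2 cores, in a window whose start site lies inside the gene's listed span and so is not its outermost start. Loxl3, Plod1 and Plod3 held 1 core each, and Loxl4 held 0. Thus 6 of 8 promoters held a core, where 36.7% of 33469 rat promoters of the same length did. All 8 windows were richer in G or C than the median of 51.2% over all promoters. They ran from 60.4% (Loxl1) to 74.8% (Plod2), with P4ha2 at 72.4%. The share over all promoters is therefore not matched for G and C content. A match is a description of letters and not a binding site.

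The question for each gene was whether its transcript level differed between case and control libraries. All 10 genes passed the filter on low counts, with 277 counts (Loxl2 in case 9) to 5724 counts (Plod2 in case 5) per library, and 0 of 10 differed at a Benjamini-Hochberg adjusted p of 0.05 in edgeR's quasi-likelihood test, as did 0% of the 16066 genes tested. The smallest adjusted p among the 10 was 0.999. At an unadjusted p of 0.05, 1 of 10 passed in edgeR, against 4.15% of all tested genes (2.27% lower and 1.88% higher in case). In DESeq2 and limma-voom, run on the same counts, 0 of the 10 passed after adjustment, where 21 and 0 of all 16066 genes did. Before adjustment 1 of 10 passed in each, against 4.61% of all genes in DESeq2 and 3.65% in limma-voom. In 0 of 10 genes were the 3 case libraries all below or all above the 3 control libraries, against 8.47% of all tested genes (4.42% lower and 4.05% higher in case). The log2 fold change was negative in 8 of 10 genes and had a median of -0.16, while 53.7% of all tested genes were negative and their median was -0.024. With 1 library left out, the members' median ran from -0.36 without case 5 to -0.054 without control 10, and 6 (without case 6) to 9 of 10 were negative. All 5 lysyl oxidases, 2 of 3 lysyl hydroxylases and 1 of 2 prolyl 4-hydroxylase subunits were among the 8.

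**Figure D1:**
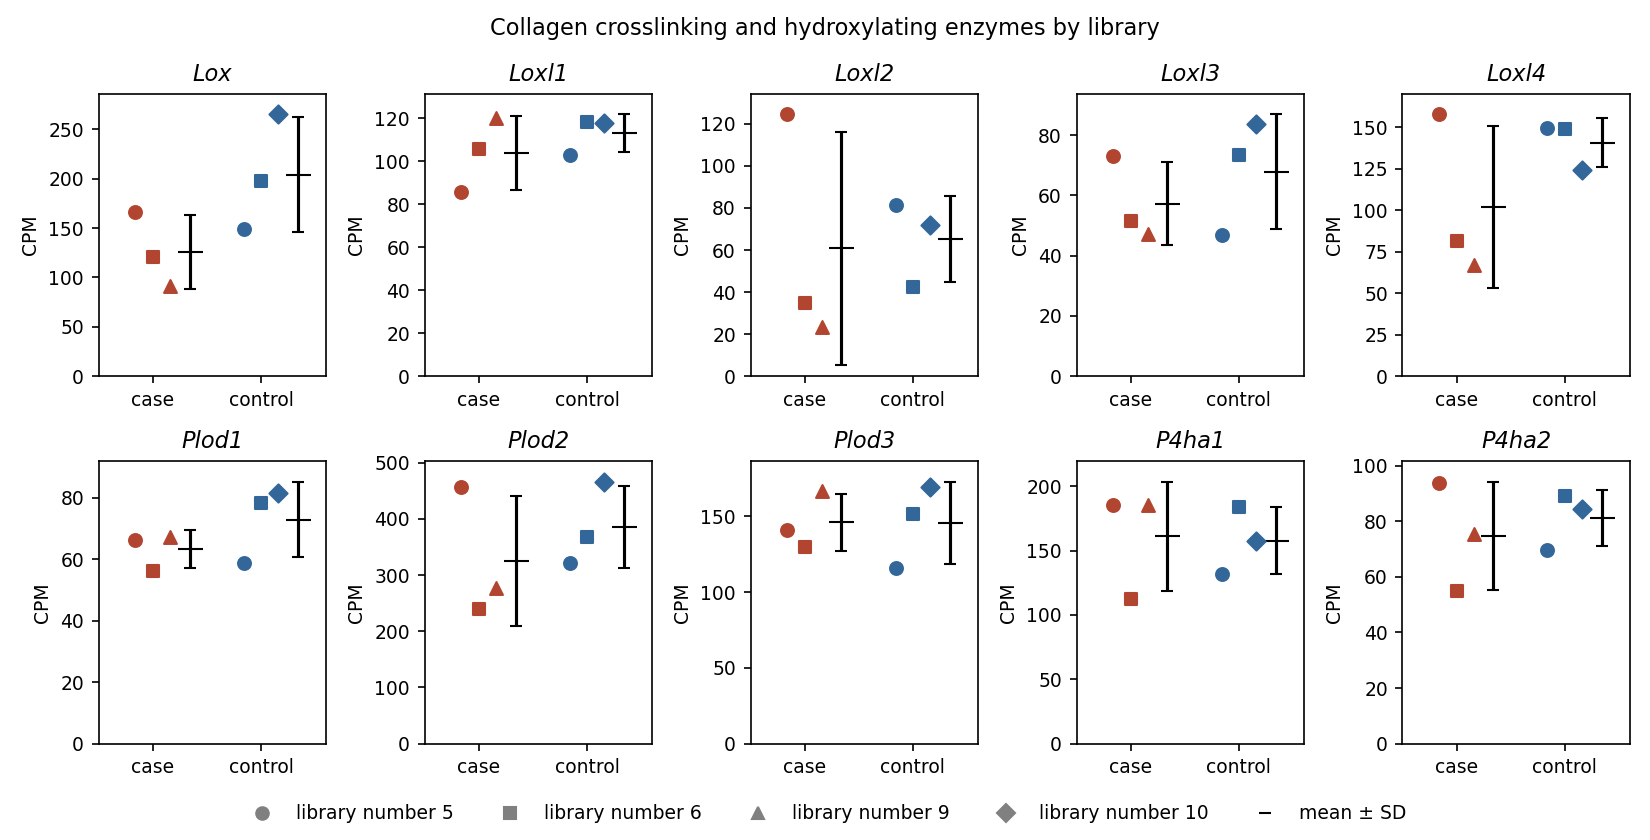
Levels of the 10 enzyme genes in each library, in CPM on a linear axis that starts at 0, with case (red) left of control (blue); symbols give the library number and bars the mean ± SD (n = 3). The groups overlap in every panel, and Loxl2 spans 23.3 to 124.5 CPM within case.

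Lox, the founding lysyl oxidase and the main crosslinking enzyme of fibrillar collagen, had 166.2, 120.2 and 91.7 CPM in case 5, 6 and 9, against 149.3, 197.6 and 265.1 CPM in control 5, 6 and 10. The groups overlapped through the libraries numbered 5: case 5 stood above control 5, while every other case library stood below every control library. Lox thus averaged 126 ± 37.6 CPM in case, against 204 ± 58.1 CPM in control (mean ± SD, n = 3 per group, as for all means below). Its log2 fold change was -0.69 with an SE of 0.28 and a 95% interval of -1.36 to -0.034. Its unadjusted p of 0.0416 in edgeR became an adjusted p of 0.999 over all genes, and Lox ranked 538 of 16066 by p. The fold change stayed negative with each library left out, between -0.92 without case 5 and -0.43 without control 10. The unadjusted pass was lost without case 6, case 9, control 6 or control 10. The fold change was -1.09 (adjusted p 0.183, edgeR) without both libraries numbered 5. Rps3a-ps12, which has no counts of its own here, overlaps Lox in the annotation, so that reads could be shared. Markers of ligament and fibroblasts moved in the same direction: they summed to 2874 to 5028 CPM in case, against 4114 to 6207 CPM in control, with 6 of 7 markers negative, 0 of 7 past the test and none at 0. Endothelial markers summed to 228 to 292 CPM in case, against 288 to 354 CPM in control, with 5 of 5 negative and 0 past the test. Of all tested genes 53.7% were negative. The part of either in the level of Lox was not tested.

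The lysyl oxidase-like genes did not share 1 pattern. Loxl2, whose product also acts on type IV collagen of basement membranes, had 124.5, 34.7 and 23.3 CPM in case 5, 6 and 9, against 81.2, 42.2 and 72.1 CPM in control 5, 6 and 10. The highest library exceeded the lowest by 5.35 times, both in case, and the libraries numbered 5 were the highest of all. This ratio had a median of 1.53 over the 7773 tested genes whose mean reached 20 CPM, and 2.29% of them varied as much as Loxl2. Its log2 fold change of -0.10 had the widest 95% interval of the 10 genes, -1.50 to 1.30. It was -1.14 without case 5 and 0.29 without case 9, so that its direction rested on single libraries. Loxl2 was high where the tooth-forming cell markers given above were high. Cartilage markers were high there too, with 105.5 CPM in case 5 and 201.7 CPM in control 5, against 35.7 to 60.3 CPM in the other libraries. Control 10 had 72.1 CPM of Loxl2, with the lowest tooth-forming sum (0.640 CPM) and 47.4 CPM of cartilage markers. The part of either marker set in Loxl2 was not tested.

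Loxl4, a lysyl oxidase with scavenger receptor domains like those of Loxl2 and Loxl3, had 157.8, 81.6 and 66.8 CPM in case 5, 6 and 9, against 149.5, 149.1 and 124 CPM in control 5, 6 and 10. Case 6 and case 9 stood below all control libraries and case 5 above them all. The mean was 102.1 ± 48.8 CPM in case and 140.9 ± 14.6 CPM in control, with a log2 fold change of -0.47 (SE 0.31) and an adjusted p of 0.999 in edgeR. The value was -0.90 without case 5 and -0.24 without case 9.

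Loxl1, which in mice is needed to maintain elastic fibres, varied least over the 6 libraries among the oxidases, with a highest library 1.40 times the lowest. It had 85.7, 105.6 and 120 CPM in case 5, 6 and 9, against 103.1, 118.5 and 117.8 CPM in control 5, 6 and 10. Case 9 was its highest and case 5 its lowest library, the reverse of Loxl2. Its log2 fold change was -0.12 (95% interval -0.51 to 0.26) and became 0.022 without case 5. Loxl3, needed in mice for the palate and the spine, had 73.0, 51.6 and 47.2 CPM in case and 46.8, 73.3 and 83.5 CPM in control, in the same order of libraries. The groups overlapped, since control 5 was the lowest of all, and the log2 fold change was -0.25 (95% interval -0.85 to 0.36). It was -0.45 without control 5 and -0.036 without control 10. The annotation places Htra2 across Loxl3, and without a stated use of strand reads of overlapping genes could be shared.

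Among the lysyl hydroxylases, Plod2 modifies the ends of the chains, where crosslinks form. It had 457.3, 240.3 and 277.3 CPM in case 5, 6 and 9, against 322.4, 367.2 and 465.8 CPM in control 5, 6 and 10. Case 6 and case 9 stood below every control library, whereas case 5 stood close to control 10, the highest. The means of 325 ± 116.1 CPM in case and 385.1 ± 73.3 CPM in control gave a log2 fold change of -0.24 (SE 0.28, 95% interval -0.89 to 0.40). It was -0.55 without case 5 and -0.051 without control 10.

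Plod1, which hydroxylates lysines of the helix, had 66.4, 56.3 and 67.2 CPM in case and 58.8, 78.2 and 81.5 CPM in control, in the same order. The case libraries lay within a narrow band that reached above control 5, and the log2 fold change was -0.20 (95% interval -0.60 to 0.20). It was -0.33 without control 5 and -0.081 without control 10. Plod3, which also adds sugars to hydroxylysine, had 141.1, 130.1 and 166.8 CPM in case and 115.8, 151.6 and 169.2 CPM in control. Control libraries held both its highest and its lowest value, and its log2 fold change of 0.0045 (95% interval -0.43 to 0.44) was the smallest in size of the 10. Reads of Plod3 could be shared with Znhit1, which overlaps it in the annotation.

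The prolyl 4-hydroxylase subunits followed each other. P4ha1, the more widely expressed catalytic subunit in mammals, had 185.4, 112.4 and 185.7 CPM in case 5, 6 and 9, against 131.8, 184 and 157.1 CPM in control 5, 6 and 10. P4ha2, the subunit prominent in cartilage and bone cells, had 93.8, 54.8 and 75.3 CPM in case and 69.8, 89.3 and 84.4 CPM in control. Case 6 was the lowest library for both, and control 5 came next. Log2 fold changes were 0.031 for P4ha1 (95% interval -0.52 to 0.58) and -0.12 for P4ha2 (-0.62 to 0.38). Without case 6 they were 0.23 and 0.059, and without both libraries numbered 5 they were -0.16 and -0.38. Snrpd2l overlaps P4ha1 in the annotation, so that its reads could be shared.

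**Figure D2:**
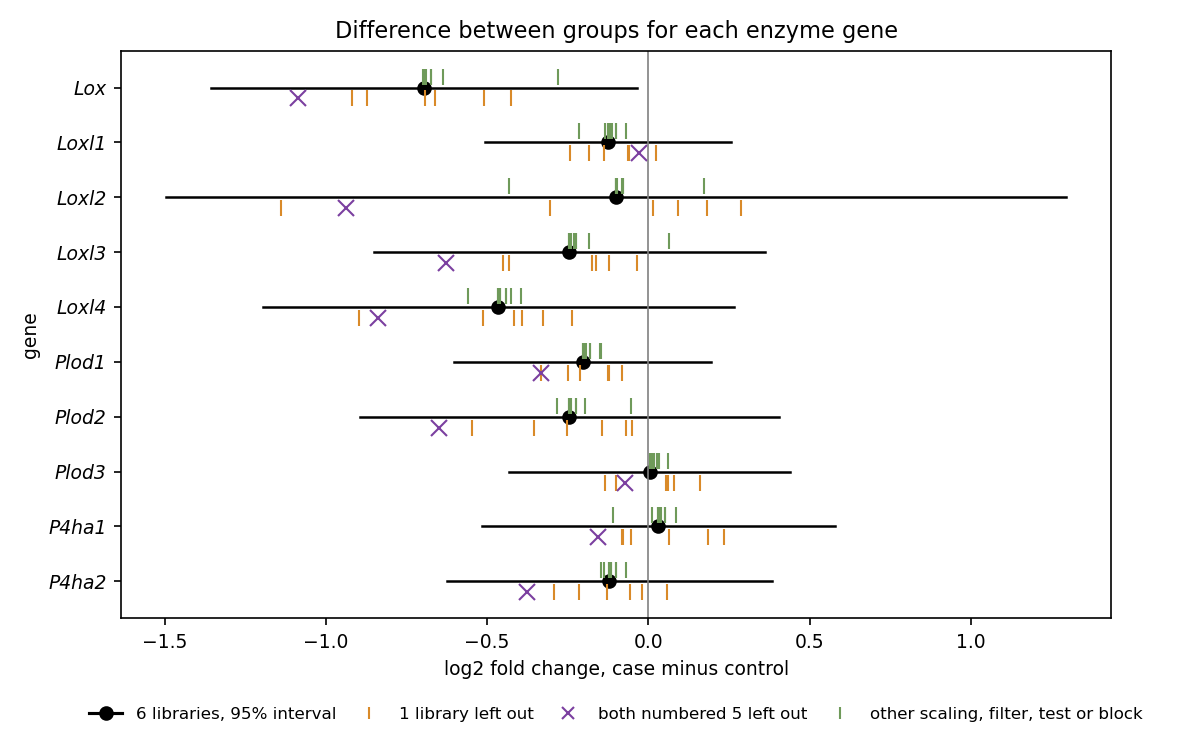
Log2 fold change (case minus control) of each gene, with 95% intervals from edgeR as black lines, and the values with 1 library left out (orange), both libraries numbered 5 left out (purple crosses) or another scaling, filter, test or block (green). The interval of Lox, -1.36 to -0.034, is the only 1 of the 10 that lies below 0, and the purple crosses lie lower than the black points for 9 of 10 genes.

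Which library was lowest varied among the genes, and the share of all genes lowest in each library was not computed. Case 9 was the lowest library for 3 of 5 lysyl oxidases (Lox, Loxl2 and Loxl4) and for 0 of 5 hydroxylases. Case 6 was the lowest for 4 of 5 hydroxylases (Plod1, Plod2, P4ha1 and P4ha2) and for 0 of 5 oxidases. Loxl1 was lowest in case 5, and Loxl3 and Plod3 were lowest in control 5. Loxl3 was nearly as low in case 9 (47.2 CPM) as in control 5 (46.8 CPM). Mean log2 CPM of the 5 lysyl oxidases was 6.85, 6.16 and 5.92 in case 5, 6 and 9, against 6.61, 6.67 and 6.89 in control 5, 6 and 10. For the lysyl hydroxylases these means were 7.35, 6.92 and 7.19 in case against 7.02, 7.35 and 7.54 in control, and for the prolyl 4-hydroxylase subunits 7.04, 6.30 and 6.89 against 6.59, 7.0 and 6.85. In each family the groups overlapped. Erythroid markers were also lowest in case 6, at 1294 CPM in sum. They had 4879 and 14205 CPM in the other case libraries and 9032 to 15823 CPM in control. Sums of osteoblast (8170 CPM), ligament and fibroblast (2874 CPM) and cartilage markers (35.7 CPM) were lowest in case 6 as well. Case 9 came next in each, with 8776, 3463 and 41.5 CPM. The part of any of these in the enzyme levels was not tested.

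**Figure D3:**
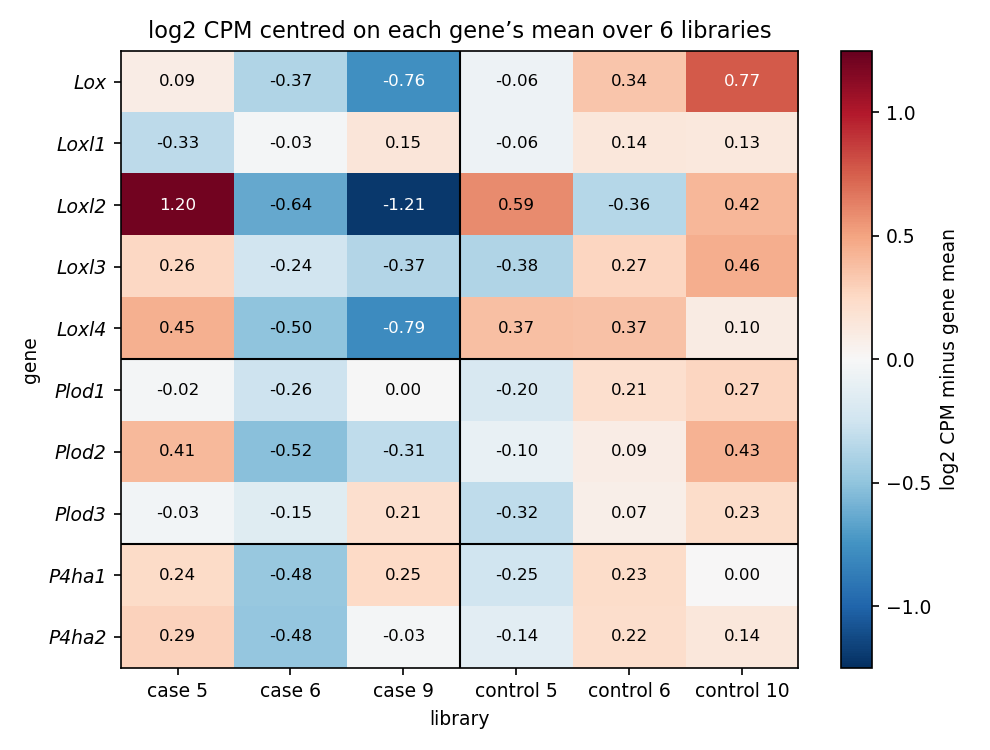
Log2 CPM of each gene (rows, families divided by lines) in each library (columns, case left of control), minus the gene's mean over the 6 libraries. Case 9 runs from -1.21 for Loxl2 to 0.25 for P4ha1, whereas case 6 is negative for all 10 genes.

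Likeness of 2 genes was measured as the root mean square difference of their centred log2 CPM over the 6 libraries. Among the 45 pairs of members the closest were Plod1 with Plod3 (0.13) and P4ha1 with P4ha2 (0.13), both within a family, and the farthest was Loxl1 with Loxl2 (0.94). The closest of 10760 other genes to Lox were Thy1, a surface glycoprotein of fibroblasts and other mesenchymal cells (0.15), the phosphate transporter Slc20a2 (0.16) and the neurotrophin receptor Ntrk2 (0.16). Thy1 had 163.9, 116.5 and 109.6 CPM in case 5, 6 and 9 and 164.6, 195.5 and 227.1 CPM in control 5, 6 and 10. Closest to Plod2 were Tmtc4 (0.071), Golt1b (0.082) and Cacnb3 (0.091), and closest to P4ha1 were Cbwd1 (0.10), Mtrf1l (0.10) and Adamts18 (0.12). With 6 libraries and so many candidates these likenesses describe the libraries only.

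Enzyme transcripts were next set against those of their main substrates, as counts per 1000 counts of Col1a1, Col1a2 and Col3a1, which needs no scaling of libraries. These chains of type I and III collagen summed to 126671 CPM in case 5, 61829 in case 6 and 56752 in case 9, against 74322, 101023 and 106226 CPM in control 5, 6 and 10. Lox stood at 1.31, 1.94 and 1.62 in case 5, 6 and 9, against 2.01, 1.96 and 2.495 in control 5, 6 and 10. All 3 case libraries were thus below all 3 control libraries, by a narrow margin between case 6 and control 6. The difference in log2 ratio was -0.42, and the exact permutation test gave a two-sided p of 0.1, the smallest that 3 libraries against 3 allow, with an adjusted p of 0.9 over the 10 genes. The same separation, lower in case, was found in 0.567% of the 16063 tested genes outside the denominator, and a separation in either direction in 1.91%. It held with Col1a1 alone as the denominator and not with Col3a1 alone, where Lox had 20.7, 24.7 and 17.6 in case and 18.4, 28.9 and 25.1 in control.

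For the other 9 genes the ratio to collagen overlapped between the groups, with exact permutation p of 0.4 to 0.9. Plod2 differed least, at 4.13 ± 0.671 per 1000 collagen counts in case and 4.12 ± 0.420 in control. Plod3 had 1.11, 2.10 and 2.94 in case 5, 6 and 9, against 1.56, 1.501 and 1.59 in control 5, 6 and 10, so that the control libraries were close together, with case 5 below them and case 6 and 9 above. P4ha1 had 1.46, 1.82 and 3.27 in case against 1.77, 1.82 and 1.48 in control, with case 9 well above the rest. Ratios within a family also overlapped: the log2 ratio of Plod2 to Plod1 differed by -0.092, that of P4ha2 to P4ha1 by -0.15 and that of Loxl2 to Lox by 0.27, with exact permutation p of 0.8, 0.3 and 0.6 and an adjusted p of 0.8 for each.

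**Figure D4:**
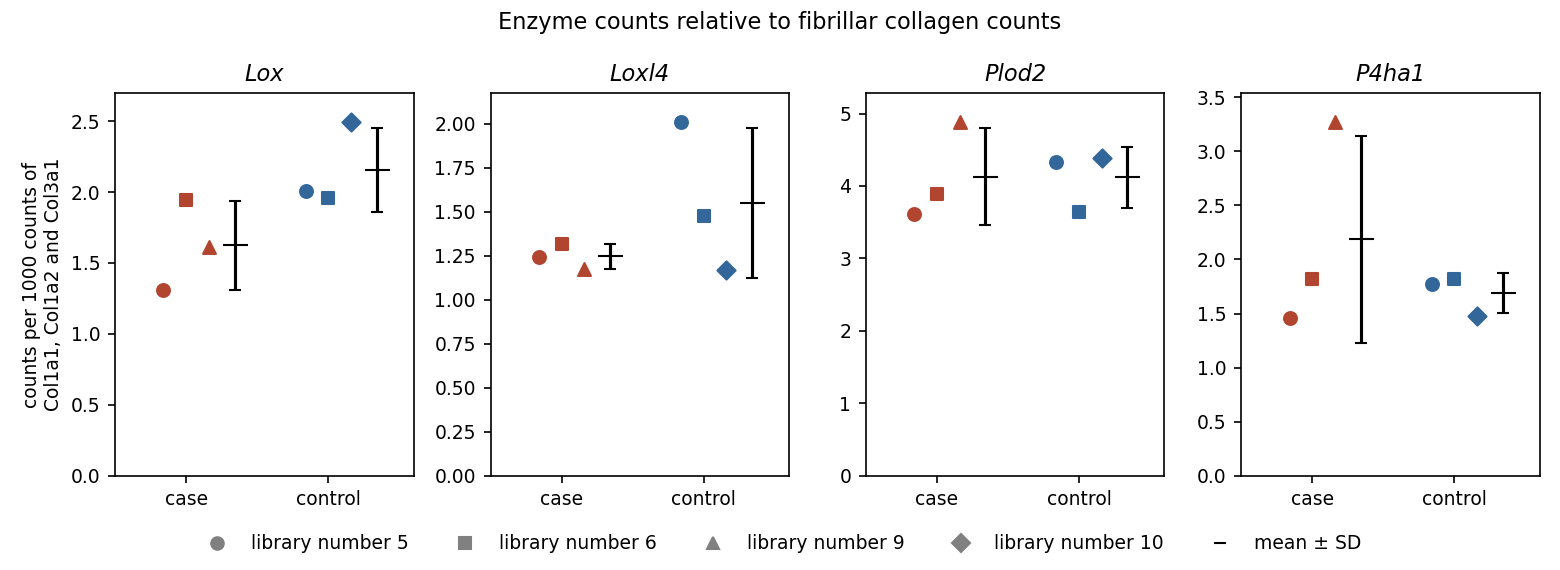
Counts of 4 enzyme genes per 1000 counts of Col1a1, Col1a2 and Col3a1 in each library, on linear axes that start at 0, with case (red) left of control (blue) and bars for the mean ± SD (n = 3). Lox is the only 1 of the 4 whose case libraries (1.31 to 1.94) all lie below its control libraries (1.96 to 2.495).

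Other genes of the collagen pathway were read from lists of symbols, and 0 members of any list passed the edgeR test over all genes. Counts of negative genes in the lists stand beside 53.7% negative over all tested genes, whose median was -0.024. These counts were not tested. The fibrillar collagen chains were negative in 11 of 11 genes, with a median log2 fold change of -0.23. Directions of the type I chains rested on single libraries: Col1a1 was at 0.0078 without case 6 and 0.043 without case 9, and Col1a2 at 0.038 without case 9. Col1a1 averaged 49829 ± 21622 CPM in case and 55070 ± 10780 CPM in control, Col1a2 25894 ± 15664 and 30284 ± 5933 CPM, and Col3a1 6028 ± 1725 and 8503 ± 1886 CPM, each with overlapping groups. The smallest p in this list belonged to Col5a3, a minor chain of type V collagen, with a log2 fold change of -0.63 (unadjusted p 0.0862, adjusted over all genes 0.999, edgeR), followed by Col24a1 (-0.44).

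Of the partners of the hydroxylases in the endoplasmic reticulum 0 passed the edgeR test, and the intervals below allow differences either way. Of the other hydroxylases and glycosyltransferases 9 of 10 were negative, with a median of -0.092. P4hb, the disulphide isomerase that forms the beta subunit of prolyl 4-hydroxylase, averaged 1134 ± 126.3 CPM in case, against 1128 ± 127.6 CPM in control. The prolyl 3-hydroxylase listed as Lepre1 (now P3h1) and its partner Crtap had log2 fold changes of -0.27 and -0.51 with overlapping groups. Of the collagen chaperones and secretion genes 7 of 9 were negative, with a median of -0.14. Serpinh1, the collagen chaperone HSP47, averaged 1978 ± 297.5 CPM in case, against 1899.7 ± 328.2 CPM in control. Fkbp10, a prolyl isomerase that in humans is linked to lysyl hydroxylation of chain ends, had a log2 fold change of -0.24, and Sparc, a collagen-binding protein of bone, one of -0.29.

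Outside the cell, the procollagen proteinases and enhancers were negative in 6 of 6 tested genes, with a median of -0.15. Bmp1, which removes the C-propeptide and also activates the Lox proenzyme, averaged 367.2 ± 66.3 CPM in case, against 410.5 ± 37.5 CPM in control; its enhancer Pcolce had a log2 fold change of -0.19 and the N-proteinase Adamts14 one of -0.52. Of the genes of elastin and elastic fibre assembly, the other substrate of lysyl oxidases, 10 of 14 were negative, with a median of -0.16. Elastin itself (Eln) had 56.4, 36.0 and 63.1 CPM in case 5, 6 and 9 and 58.4, 77.5 and 101.7 CPM in control 5, 6 and 10, which overlapped by the lowest control library alone, and its log2 fold change was -0.61 (unadjusted p 0.0576, adjusted over all genes 0.999, edgeR). Fbln2 and Mfap5, of the same list, stood at -0.90 and -0.73 with overlapping groups.

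Proteins that bind collagen or take part in other crosslinks were negative in 7 of 10 genes, with a median of -0.22. Dcn, the proteoglycan decorin, had a log2 fold change of -0.50 and Postn, which in mice aids the activation of Lox, one of -0.47, each with overlapping groups. F13a1, the A chain of the transglutaminase factor XIII, was 1 of the 3 positive genes and had the smallest p of its list (edgeR). Its groups did not overlap, as in 8.47% of all tested genes (4.05% higher in case). Of all tested genes 4.15% had an unadjusted p under 0.05 in edgeR. It had 80.6, 98.3 and 90.3 CPM in case 5, 6 and 9 against 64.9, 66.1 and 77.7 CPM in control 5, 6 and 10, a log2 fold change of 0.37 (unadjusted p 0.0377, adjusted over all genes 0.999, edgeR). Leukocyte markers were also positive in 6 of 7 genes, summing to 2048 to 3744 CPM in case, against 1499 to 2406 CPM in control, and their part in F13a1, which macrophages and megakaryocytes express, was not tested. Of the copper and ascorbate supply genes 2 of 5 tested were negative and 3 (Atp7b, Atox1 and Slc23a2) positive, with a median of 0.054. Atp7a, the copper pump that loads lysyl oxidases, averaged 17.3 ± 6.27 CPM in case, against 20.6 ± 4.97 CPM in control, and the copper importer Slc31a1 13.9 ± 4.28 CPM in case, against 17.0 ± 2.20 CPM in control.

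Leaving out both libraries numbered 5 changed the picture for the enzymes more than any other setting. With case 6 and 9 against control 6 and 10, 10 of 10 genes were negative in fold change, and the median was -0.50, where 48.8% of 16298 tested genes were negative. The case libraries were below both control libraries in 7 of 10 genes (all but Loxl1, Plod3 and P4ha1), a count made after seeing the data, against 26.5% of all genes. At an unadjusted p of 0.05, 5 of 10 passed in edgeR (Lox, Loxl2, Loxl3, Loxl4 and Plod2), against 14.1% of all genes, and 0 passed after adjustment, the smallest adjusted p being 0.181 for Loxl4. Col1a1, Col1a2 and Col3a1 summed to 61829 and 56752 CPM in case 6 and 9, against 101023 and 106226 CPM in control 6 and 10. Osteoblast markers had 8170 and 8776 CPM in these case libraries, against 11352 and 10412 CPM in these control libraries. Ligament and fibroblast markers had 2874 and 3463 CPM against 4114 and 6207 CPM. Leukocyte markers went the other way, with 3419 and 3744 CPM against 2406 and 1816 CPM. Their part in the enzyme levels was not tested. Without case 5 alone 4 of 10 passed before adjustment (Lox, Loxl2, Loxl4 and Plod2), against 9.54% of all genes. With both libraries numbered 5 left out each group holds 2 libraries, and those left out were known to stand apart from earlier results of these data.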

How the data were processed

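TRIzol extracts of rat alveolar tissue had been sequenced with single-end reads from kit-made total RNA libraries, per the labels' protocols. The authors deposited whole-number counts per gene symbol, without normalization, in 1 table for the 6 libraries. Sources used here do not name the aligner, counting program, build, annotation or use of strand, so no gene coordinates are given; RefSeq GRCr8 gave promoters, older symbols and overlaps.

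Low genes were removed by filterByExpr, which left 16066. The 2 groups were compared two-sided by the quasi-likelihood test (edgeR 4.0.16, R 4.3.3; TMM library scaling, no covariate), with p-values adjusted over all genes by Benjamini-Hochberg at 0.05. The SE is the fold change over the root of F. A run on simulated counts checked only the direction of large planted changes and that the largest were called more often than the smallest. It was not a check for changes of the size seen here. Log2 CPM had a prior count of 2; 0.5 was added to counts in log2 ratios, which were compared by exact permutation. Alternatives were DESeq2 1.42.0, limma-voom (limma 3.58.1), other scalings and filters, a robust fit, left-out libraries and the title number as a block. Members and lists were chosen with earlier results of these data known. Named genes are the 10 members, up to 3 genes of smallest p per list, 7 always given, and the 3 most alike to each of Lox, Plod2 and P4ha1; the text gives a part of them. Totals were 10886303 to 14433740 counts; a count of 0 allows 0.2 to 0.274 CPM, for counting error only.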

Additional observations from a re-analysis of the deposited data

How the results depend on the processing

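The call of 0 members after adjustment held under all alternatives run. Over all genes 0 were called, but 21 by DESeq2, and 0 to 2 with a library left out. At an unadjusted p of 0.05 there were 666 genes, 1113 with no filter, 2294 without both libraries numbered 5, and 367 (without case 6) to 1566 (without case 5) with 1 library left out. For members this count was 1, but 0 to 4 with a library left out, 5 without both numbered 5 and 0 with the block; without both numbered 5 their median fold change was -0.50 against -0.16, and 7 in place of 0 had separate groups, lower in case. Other scalings turned the direction of 0 members.

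Of 160 alternative fold changes of members 144 kept direction and side of the threshold and 16 reversed. With a library left out Loxl1 (-0.24 to 0.022), Loxl2 (-1.14 to 0.29), Plod3 (-0.13 to 0.16), P4ha1 (-0.083 to 0.23) and P4ha2 (-0.29 to 0.059) crossed 0. Without both libraries numbered 5 Plod3 (-0.073) and P4ha1 (-0.16) reversed. Of 496 such values of the 31 other genes run this way, which leave out the genes most alike to Plod2 and P4ha1, 15 reversed: with a library left out Col1a1 (-0.53 to 0.043), Col1a2 (-0.82 to 0.038), Pcolce (-0.39 to 0.034), P4hb (-0.077 to 0.12) and Serpinh1 (-0.072 to 0.19), and Serpinh1 without both numbered 5 (-0.085).

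The titles share the numbers 5 and 6, which is too few to show pairing; deviations from group means correlated across genes at 0.38 for number 5 and 0.14 for number 6. With the number as a replicate block Lox stood at -0.28, Loxl2 (0.17), Loxl3 (0.066), P4ha1 (-0.11), Col1a1 (0.069), Col1a2 (0.033), Pcolce (0.049), P4hb (-0.019) and Fkbp10 (0.074) reversed, 653 genes had an unadjusted p under 0.05, and the block changed no call after adjustment.

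Of 111 alternative ratios 23 reversed. Differences in log2 ratio to collagen with a library left out ran from -0.18 to 0.64 for Loxl1, -0.50 to 0.19 for Loxl2, -0.039 to 0.23 for Loxl3, -0.17 to 0.42 for Plod1, -0.13 to 0.087 for Plod2, -0.018 to 0.68 for Plod3, -0.047 to 0.53 for P4ha1 and -0.10 to 0.32 for P4ha2. With Col3a1 alone as denominator Loxl2 (0.077) and Plod2 (0.22) reversed, with Col1a1 alone Loxl3 (-0.023), and without both libraries numbered 5 Plod2 (0.13). Plod2 to Plod1 ran from -0.33 to 0.040 and Loxl2 to Lox from -0.22 to 0.66 with a library left out. The cause of these reversals was not tested. Members had at least 277 counts in every library; how depth and spread between libraries limited the calls was not tested.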

Other observations

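Genes of the response to low oxygen and of TGF-beta signalling were read beside the enzymes. Low oxygen is known to induce P4ha1, Plod2 and Lox in cultured cells. The lists include the factors Hif1a and Epas1 and the ligands Tgfb1, Tgfb2 and Tgfb3. Of 15 hypoxia genes other than the members 12 had a negative log2 fold change, against 53.7% of all tested genes. Their median was -0.13, and 0 passed the edgeR test over all genes. Vegfa, the vessel growth factor, had 88.8, 90.3 and 81.3 CPM in case 5, 6 and 9, against 124.6, 91.2 and 116.4 CPM in control 5, 6 and 10, and the mitophagy gene Bnip3 had 9.51, 11.4 and 10.5 CPM against 14.1, 13.1 and 12.9 CPM. In both the groups did not overlap, as in 8.47% of all tested genes. Hif1a, the oxygen-regulated factor itself, averaged 63.1 ± 8.29 CPM in case, against 82.7 ± 11.8 CPM in control with overlapping groups (unadjusted p 0.0505 in edgeR). Vegfa, Bnip3 and Hif1a were the genes of smallest p in this list (edgeR), so they do not stand for the rest of it. P4ha1 averaged 161.1 ± 42.2 CPM in case and 157.7 ± 26.1 CPM in control, a log2 fold change of 0.031.

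Of 9 TGF-beta genes 6 had a negative log2 fold change, against 53.7% of all tested genes, with a median of -0.16 and 0 past the edgeR test. The smooth muscle genes Tagln (-0.63) and Acta2 (-0.51) and the feedback gene Skil (-0.41) had the smallest p, each with overlapping groups. Control 10 had the highest Acta2 (208.4 CPM) and Tagln (199.7 CPM) of the 6 libraries, and it also had the highest Lox. Case 5 had the lowest Acta2 (79.5 CPM) and Tagln (61.4 CPM), while its Lox (166.2 CPM) was the highest in case. A link of these genes to Lox was not tested.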
